A study of Mus musculus with 26 samples.

Results

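The contractile and excitation genes of embryonic muscle are 33 genes chosen by symbol and all named below, out of the 24313 symbols that both deposited tables list. They encode the filaments of the sarcomere, its scaffold, and the membrane proteins that turn a nerve signal into calcium release. All 33 symbols were found in both tables, and all 33 passed the filter on low values (a mean of at least 1 FPKM over the libraries of a table). FPKM counts fragments relative to transcript length and library size, so levels may be set beside each other between genes on that scale.

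RNA of E13.5 mouse forelimbs was sequenced in 26 libraries to ask what the loss of Hic1, a transcriptional repressor, does to gene expression. The conventional series held 3 libraries of Hic1 wild type, 3 of Hic1 heterozygotes and 3 of Hic1 knockouts. In the conditional series the controls carried 1 floxed Hic1 allele and no Cre (n = 5), the heterozygotes carried Prrx1-driven Cre with 1 floxed allele (n = 5), and the knockouts carried the same Cre with both alleles floxed (n = 7). These controls are labelled wild type, although every conditional group carried at least 1 floxed allele. Prrx1-driven Cre acts in limb bud mesenchyme, whereas the muscle fibres of the limb descend from the somites. Whole forelimbs were used, so muscle is one tissue among many in each library. The labels do not say whether replicates came from separate embryos or litters, so each p-value measures the spread between these libraries only.

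Muscle contracts when myosin heads of the thick filament pull on actin of the thin filament, which the troponin complex opens once calcium binds. Most of these proteins exist as paralogs, and fibres that become fast replace embryonic and slow or cardiac paralogs with fetal and then fast adult ones. In fibres of the embryonic limb, embryonic myosin and cardiac actin are made early, and the acetylcholine receptor carries a gamma subunit that an epsilon subunit later replaces.

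Hic1 followed its labels in every library. It lay between 49.1 and 64.2 FPKM in the conventional wild type, between 30.9 and 37.3 FPKM in the heterozygotes and between 1.23 and 2.56 FPKM in the knockouts. The conditional libraries lay between 52.4 and 65.8 FPKM in the controls, between 28.0 and 34.9 FPKM in the heterozygotes and between 2.76 and 6.16 FPKM in the knockouts. Limb mesenchyme markers were present in every group (mean Tbx5 between 50.1 and 66.3 FPKM), as were the myogenic factors Myog and Myod1. Of all libraries, replicate 1 of the conventional knockouts correlated least with the others in its series (median r = 0.869), so results that rest on it are given with and without it.

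Short upstream sequences are shown for 4 members, a pair of actins and a pair of myosin heavy chains whose shares are given below. Each is the 150 bases before the RefSeq start site on the gene's own strand (GRCm38.p6, the same assembly as mm10), and capitals mark an E-box (CANNTG, bound by myogenic factors) or a CArG box (bound by serum response factor). Acta1 (chr8:123894776-123894925, minus strand) and Actc1 (chr2:114052876-114053025, minus strand) encode the skeletal and cardiac alpha-actins. Myh3 (chr11:67078150-67078299, plus strand) and Myh8 (chr11:67276974-67277123, plus strand) encode the embryonic and perinatal myosin heavy chains.
Acta1: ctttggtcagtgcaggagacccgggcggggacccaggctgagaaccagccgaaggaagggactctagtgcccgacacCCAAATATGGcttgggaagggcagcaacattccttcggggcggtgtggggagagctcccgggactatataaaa
Actc1: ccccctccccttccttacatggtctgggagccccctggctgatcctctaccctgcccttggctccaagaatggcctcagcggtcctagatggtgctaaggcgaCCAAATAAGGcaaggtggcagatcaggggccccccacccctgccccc
Myh3: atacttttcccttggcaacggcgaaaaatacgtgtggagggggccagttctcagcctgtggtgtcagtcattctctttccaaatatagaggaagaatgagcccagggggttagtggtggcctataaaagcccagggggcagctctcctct
Myh8: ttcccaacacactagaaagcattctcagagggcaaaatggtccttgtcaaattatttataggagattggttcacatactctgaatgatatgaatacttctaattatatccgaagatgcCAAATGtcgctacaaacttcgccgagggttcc
Both actin sequences held 1 CArG box and no E-box. The Myh8 sequence held 1 E-box and the Myh3 sequence held neither motif. Across the 32 upstream windows found for 29 of the 33 members, 22 held an E-box (68.8%), against 47.7% of all 32843 windows of that length. A CArG box stood in 3 of the 32 member windows (9.38%) against 0.916% of all windows, both strands being read by these palindromic patterns, and the 2 motifs can overlap. The MCAT motif CATTCC, read on both strands, stood in 7 member windows (21.9%) against 7.59%, and the MEF2 motif in 3 (9.38%) against 1.67%. A match describes the letters of the window only.

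Actc1, the cardiac alpha-actin, was the highest of the 33 genes, at 405, 347 and 353 FPKM in the 3 conventional wild type libraries. It ranked 123 of the 12717 genes tested there, and Ckm, the muscle creatine kinase, stood lowest of the members at 1.11, 1.46 and 1.76 FPKM. The members therefore covered a range from Ckm, at a mean of 1.45 ± 0.324 FPKM (SD, n = 3), to Actc1, at 369 ± 31.7 FPKM (SD, n = 3). In the conditional controls Actc1 stood at 462, 422, 399, 540 and 476 FPKM and was again the highest. Going down the order of wild type means, 17 of the 32 neighbouring pairs of members overlapped between libraries in the conventional wild type, as did 29 of 32 in the conditional controls. Neighbours in the order were thus often not separable by their spread.

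**Figure D1:**
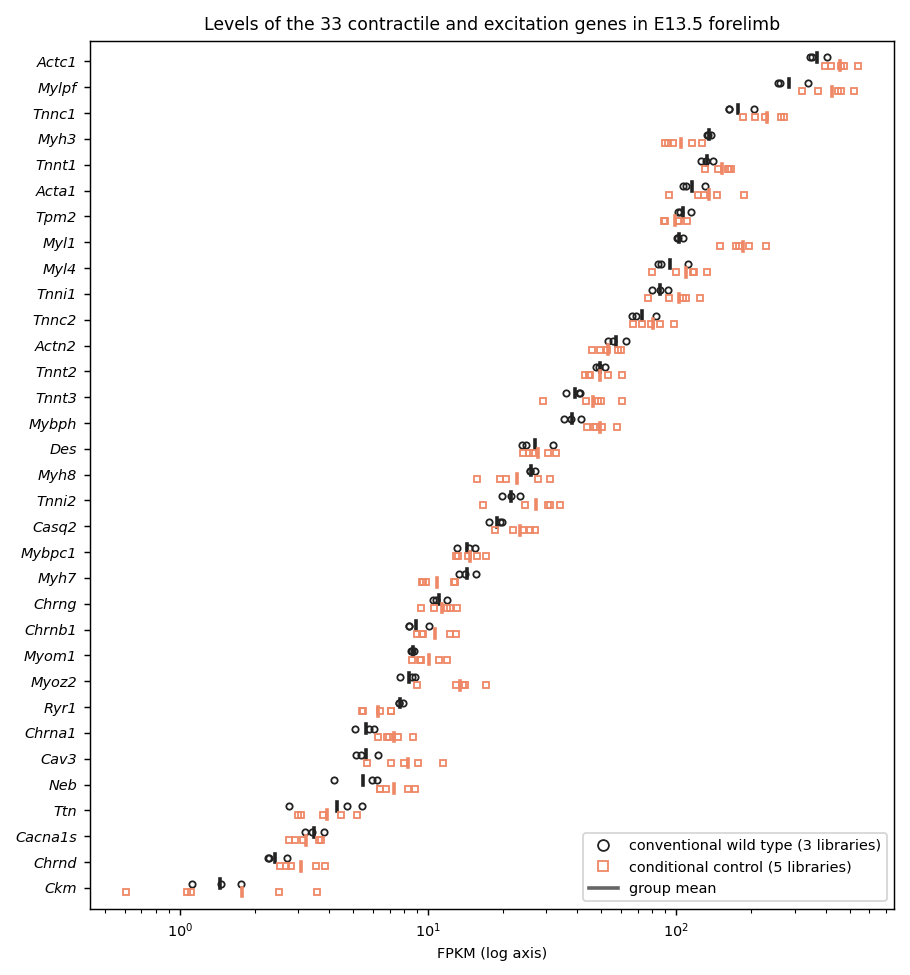
FPKM on a log axis of the 33 members in the conventional wild type (circles, 3 libraries) and the conditional controls (squares, 5 libraries), with a bar at each group mean. Actc1 and Mylpf lead in both, and Ckm is lowest in both; the 2 tables were made separately, so levels are not compared between them.

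Among the myosin heavy chains the embryonic paralog Myh3 led. It stood at 138, 133 and 134 FPKM in the conventional wild type, where Myh8 stood at 26.9, 25.7 and 25.8 FPKM and Myh7, the slow and beta-cardiac chain, at 15.6, 13.3 and 14.1 FPKM. Myh3 thus made 77.0% ± 0.463 of the summed FPKM of the 3 chains, Myh8 14.9% ± 0.0708 and Myh7 8.16% ± 0.457 (SD, n = 3). The adult fast chains Myh1, Myh2 and Myh4 stood at 1.30 ± 0.165, 0.546 ± 0.0655 and 0.410 ± 0.0391 FPKM in the same libraries. In the conditional controls the shares were 75.7% ± 2.15 for Myh3, 16.4% ± 2.10 for Myh8 and 7.89% ± 0.297 for Myh7 (SD, n = 5). Of the members, 4 lie on chromosome 11, as Hic1 does. Myh3 and Myh8 lie there in one cluster, 8.06 and 7.86 megabases from Hic1. Chrnb1 lies closer, at 5.37 megabases, and Myl4 farther, at 29.4 megabases.

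The light chains and actins mixed embryonic with fast or skeletal forms. Myl1, the fast essential light chain, made 52.3% ± 3.07 of its sum with Myl4, the embryonic and atrial essential light chain, in the conventional wild type, and 63.1% ± 1.71 in the conditional controls. Mylpf, the fast regulatory light chain, stood at 340, 257 and 262 FPKM in the conventional wild type. Myl2, the slow and ventricular regulatory light chain, was at 0.258 ± 0.0168 FPKM there. Acta1, the skeletal actin, made 23.8% ± 0.422 of the 2 alpha-actins (SD, n = 3), the rest being Actc1. Tpm2, the beta-tropomyosin of the thin filament, stood at 107 ± 6.88 FPKM in the same libraries.

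Slow paralogs led every troponin subunit. Tnnt1, the slow troponin T, made 60.0% ± 0.490 of the 3 troponin T genes in the conventional wild type. Cardiac Tnnt2 made 22.3% ± 0.346 and fast Tnnt3 17.7% ± 0.713 (SD, n = 3). Fast Tnni2 made 20.0% ± 0.180 of its sum with slow Tnni1, and fast Tnnc2 made 29.1% ± 0.432 of its sum with slow and cardiac Tnnc1. The conditional controls showed the same leading paralog in each family, with 61.8% ± 4.37 for Tnnt1, 20.9% ± 1.80 for Tnni2 and 25.9% ± 1.70 for Tnnc2 (SD, n = 5). Of 8 heart muscle markers 2 passed the filter in the conventional table. The summed level of all 8 ran from 4.44 to 5.30 FPKM in the conventional wild type and from 3.66 to 6.34 FPKM in the conditional controls. In the conventional wild type Nppa was listed at 0 in all 3 libraries, and Nkx2-5, Myl7, Mybpc3 and Ryr2 averaged 0.0149, 0.0493, 0.00441 and 0.189 FPKM. Tnni3, the cardiac troponin I, stood at 2.13 ± 0.0480 FPKM (SD, n = 3) in the conventional wild type and 2.55 ± 0.533 FPKM (SD, n = 5) in the conditional controls. Myl3, the slow and ventricular light chain, stood at 0.849 ± 0.374 and 1.94 ± 0.754 FPKM in the same groups. Myh6, the alpha-cardiac chain, stood at 1.67 ± 0.549 and 0.231 ± 0.0186 FPKM. The part of heart tissue in the members' values was not tested.

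The coding sequences of the paralogs differ in how far reads could be shared between them. Acta1 and Actc1 are 86.3% identical with a longest shared run of 29 bases, Myh3 and Myh8 are 80.9% identical with a run of 77 bases, and Myh6 and Myh7 are 91.7% identical with a run of 245 bases. Values of Myh7 and Myh6 are therefore uncertain against each other.

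Of the sarcomere scaffold genes Actn2, the Z-disc crosslinker, stood at 57.3 ± 5.13 FPKM in the conventional wild type, Mybph, a thick-filament binding protein, at 38.1 ± 3.04 FPKM, and Des, the muscle intermediate filament, at 26.9 ± 4.28 FPKM (SD, n = 3). Mybpc1, the slow myosin binding protein C, stood at 14.4 ± 1.20 FPKM, Myom1 of the M-band at 8.66 ± 0.143 FPKM and Myoz2 of the Z-disc at 8.39 ± 0.602 FPKM. Neb, which lines the thin filament, and Ttn, the spring that spans from Z-disc to M-band, stood at 5.45 ± 1.12 and 4.29 ± 1.39 FPKM.

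Of the excitation genes, the acetylcholine receptor was of the fetal kind. Chrng, its gamma subunit, stood at 10.5, 10.8 and 12.0 FPKM in the conventional wild type, and Chrne, the adult epsilon subunit, was listed at 0 in all 3 libraries. In the 17 conditional libraries Chrng made between 98.7% and 100% of the 2 subunits. The other receptor subunits stood at 8.95 ± 0.989 FPKM for Chrnb1, 5.63 ± 0.491 FPKM for Chrna1 and 2.42 ± 0.248 FPKM for Chrnd (SD, n = 3). Ryr1, the calcium release channel, stood at 7.72 ± 0.164 FPKM and Cacna1s, the voltage sensor that opens it, at 3.46 ± 0.315 FPKM. Casq2, a calcium-binding protein of the sarcoplasmic reticulum, was higher at 19.0 ± 1.20 FPKM, and Cav3, the muscle caveolin, stood at 5.61 ± 0.620 FPKM.

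In the conventional knockout all 33 members had a lower fitted level than in the wild type, where 52.2% of all genes had a negative fold change, and none passed the test. The log2 fold changes ran from -0.90 for Neb to -0.02 for Ryr1, with a median of -0.34 against -0.02 over all 12717 genes tested. By limma 0 members were called at an adjusted p under 0.05, where 0.00786% of all genes were called lower. At an unadjusted p under 0.05, 11 members were lower, against 4.25% of all genes tested lower by that rule. The libraries of knockout and wild type did not overlap for 11 members, all lower in the knockout, against 7.86% of all genes. In bulk tissue, fewer muscle cells and less of these RNAs per cell cannot be told apart.

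Myh8, the perinatal myosin heavy chain, had the smallest p of the members in this comparison. It stood at 15.4, 12.1 and 13.6 FPKM in the 3 knockouts against 26.9, 25.7 and 25.8 FPKM in the wild type and 23.2, 31.0 and 21.3 FPKM in the heterozygotes. Every knockout library lay below every wild type and heterozygous library. The knockout mean was 52.4% of wild type, a log2 fold change of -0.89 ± 0.15 (SE) with a limma adjusted p of 0.191.

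Casq2 stood at 12.1, 13.3 and 13.4 FPKM in the knockouts against 19.9, 19.5 and 17.6 FPKM in the wild type. These groups did not overlap, and the log2 fold change was -0.52 ± 0.10 (SE) with a limma adjusted p of 0.256. Myh3, the embryonic heavy chain, stood at 116, 88.8 and 95.7 FPKM in the knockouts against at least 133 FPKM in every wild type library, a log2 fold change of -0.44 ± 0.12 (SE) with a limma adjusted p of 0.484. Myl1, the fast essential light chain, also lay lower in all 3 knockouts, at 82.4, 72.0 and 70.9 FPKM against 106, 101 and 101 FPKM (log2 fold change -0.45 ± 0.12 SE).

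Of the troponin T genes, cardiac Tnnt2 and fast Tnnt3 did not overlap between the groups. Tnnt2 stood at 36.2, 32.0 and 35.2 FPKM in the knockouts against 51.8, 49.0 and 47.6 FPKM in the wild type. Tnnt3 stood at 30.8, 26.2 and 23.9 FPKM against 40.5, 41.2 and 36.0 FPKM. Tnnt1 stood at 152, 110 and 107 FPKM against 141, 132 and 126 FPKM. Knockout replicate 1 thus lay above every wild type library and the other knockouts lay below every wild type library. Their log2 fold changes were -0.51 for Tnnt2, -0.53 for Tnnt3 and -0.13 for Tnnt1, and -0.54, -0.63 and -0.29 without knockout replicate 1. The difference in fold change between these genes was not tested.

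Ckm, Myom1, Myoz2, Chrnb1 and Mybpc1 made up the rest of the members whose knockout and wild type libraries did not overlap. Ckm stood at 0.694, 0.341 and 0.298 FPKM in the knockouts, a mean 30.7% of wild type, at levels where the log2(FPKM + 1) scale understates the change. Myom1 stood at 6.83, 6.09 and 6.17 FPKM in the knockouts, against 8.65, 8.53 and 8.81 FPKM in the wild type. Mybpc1 had its lowest value, 5.80 FPKM, in knockout replicate 1, while the other knockouts at 10.9 and 12.9 FPKM lay just under the lowest wild type library at 13.1 FPKM. The giant Neb overlapped between groups, with 1.59, 1.81 and 4.51 FPKM in the knockouts against 4.17, 5.97 and 6.21 FPKM in the wild type. Myoz2, which stood at 6.82, 5.24 and 5.67 FPKM in the knockouts, lay below 8.84, 8.62 and 7.71 FPKM in the wild type. Chrnb1, the beta subunit of the acetylcholine receptor, stood at 7.54, 6.73 and 7.11 FPKM against 8.38, 8.38 and 10.1 FPKM. Both were lower in every knockout library. Chrng, the gamma subunit, stood at 15.9, 7.55 and 9.34 FPKM in the knockouts, which held both the highest and the lowest value of the table.

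Knockout replicate 1 was the highest library of the conventional table for 15 members and the lowest for 4, while knockout replicate 2 was lowest for 19 and knockout replicate 3 for 9. Across the genes tested that have a transcript length, the deviation of knockout replicate 1 from the table mean had a Spearman correlation of -0.37 with that length (n = 12272 genes, which are not independent replicates), and of -0.25 over the 33 members. Wild type replicate 1 stood at -0.11 and -0.39 in the same order, and heterozygote replicate 1 at -0.18 and -0.39. Replicates 2 and 3 of the 3 groups ran from 0.14 to 0.40 over those genes and from -0.19 to 0.56 over the members. Actc1 stood at 461 FPKM in knockout replicate 1 and at 270 and 282 FPKM in the other knockouts. Without knockout replicate 1 all 33 members again had a lower fitted level, with a median log2 fold change of -0.49. At an unadjusted p under 0.05 there were then 28 members lower, against 7.48% of all genes, and 31 members did not overlap, against 15.7% of all genes. Still 0 members were called, the smallest limma adjusted p being 0.103. Without knockout replicate 2 there were 7 members under an unadjusted p of 0.05, against 6.98% of all genes, and 27 with a negative fold change. Without wild type replicate 2 there were 7 under that p, against 3.77% of all genes. With the replicate number as a block there were 13, against 16.6% of all genes. Without knockout replicate 3 the fold change was negative for 28 members, with a median of -0.22. When limma weighted the libraries by their own spread, knockout replicate 1 received a weight of 0.0468 and 25 members were called lower, where 4.21% of all genes were called lower. Against the heterozygotes the same weights called 2 members lower, where 0.236% of all genes were.

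**Figure D2:**
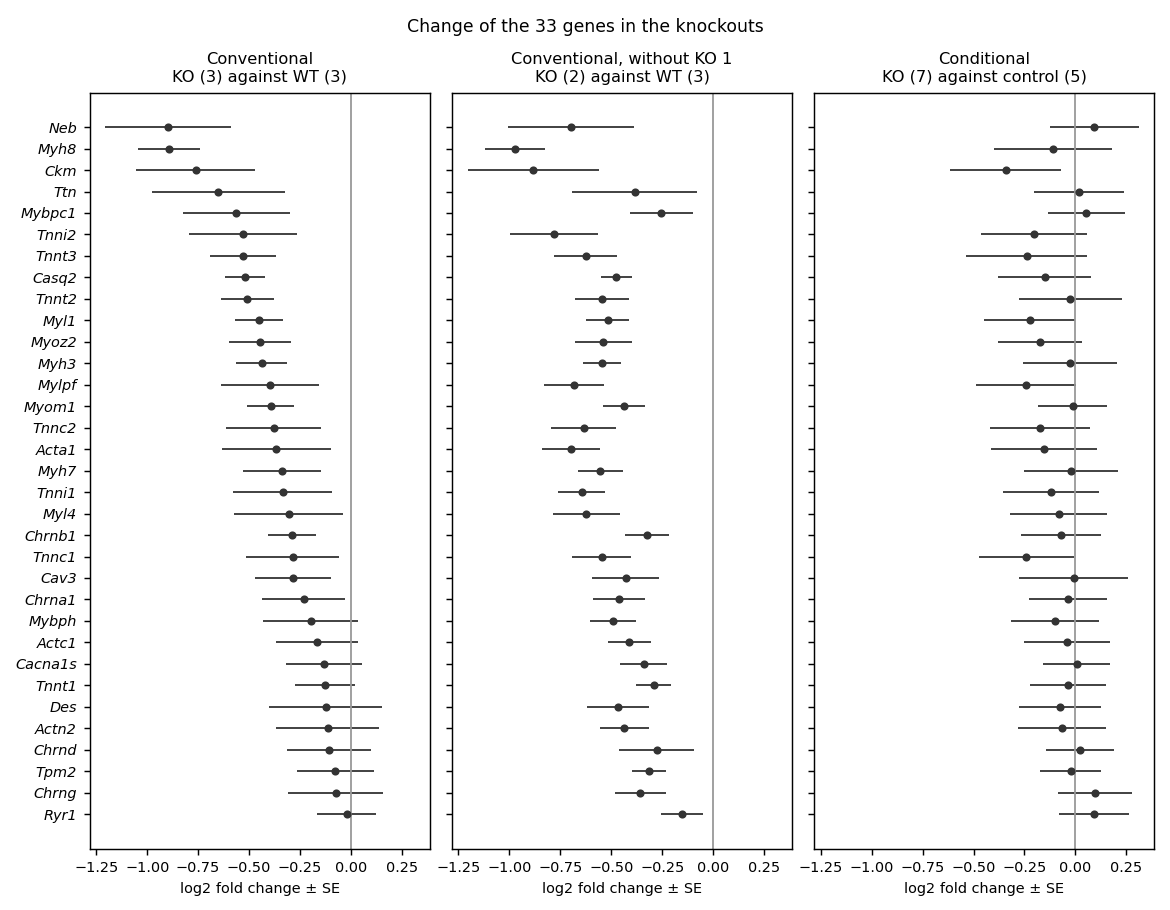
Log2 fold change of log2(FPKM + 1) with its SE for each member, in the conventional knockout with all libraries, in the same comparison without knockout replicate 1, and in the conditional knockout. All points lie left of 0 in both conventional panels, from -0.90 for Neb to -0.02 for Ryr1 in the first, and they lie on both sides of 0 in the conditional panel.

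Replicate 1 of each conventional group had the letters CH in its column name and replicates 2 and 3 had CL; what the letters stand for is not given in the sources used here. Within the CL libraries alone, 2 in each group, all 33 members had a negative fold change in the knockout, with a median of -0.44, and the CH libraries hold 1 library of each group. Markers of other tissues were set beside the members, and none was called with all libraries. In the knockout against wild type, the median log2 fold change was -0.90 over 5 tendon markers, -0.40 over 6 cartilage markers, -0.57 over 5 neuron markers and 0.92 over 3 primitive erythroid markers. Without knockout replicate 1 these medians were -0.39, -0.64, -0.63 and 0.71, and 1 tendon marker, Thbs4, was called lower (limma adjusted p = 0.0425). Over 5 epidermis markers the median was -0.28, and -0.46 without knockout replicate 1. In the same order it was -0.24 and -0.44 over 4 smooth muscle and mural markers and 0.01 and 0.10 over 6 limb mesenchyme markers. Over 2 heart muscle markers it was -0.04 and -0.11. Over the 8 markers of myogenic progenitors and myoblasts tested it was 0.04, and -0.17 without knockout replicate 1. The summed level of the 10 myogenic markers ran from 174 to 203 FPKM in the wild type and from 157 to 261 FPKM in the knockouts, with none at 0. The part of these tissues in the result was not tested.

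In the heterozygotes no member was distinguished from wild type. By limma 0 members were called and 0 had an unadjusted p under 0.05, where 0.37% of all genes were under that p and 0% were called. No member separated heterozygote from wild type without overlap, where 1.38% of all genes were lower and 2.43% higher in that way. The fold change was negative for 24 members, against 47% of all genes, with a median of -0.05. Against the heterozygotes, the knockouts again had a negative fold change for 33 members, against 53.8% of all genes, with a median of -0.30 and 0 called (0.00786% of all genes). There 10 members were lower at an unadjusted p under 0.05, against 3.24% of all genes. The groups did not overlap for 9 members, against 6.21% of all genes. Without knockout replicate 1 the first of these counts was 27, against 6.32% of all genes, and without knockout replicate 2 or heterozygote replicate 2 it was 4, against 4.43% and 1.68% of all genes in either direction. With the replicate number as a block it was 14, against 9.33% of all genes. Myh8 in the knockouts was 54.4% of its heterozygous mean, with a log2 fold change of -0.82 ± 0.15 (SE) and a limma adjusted p of 0.608. Both knockout comparisons share the knockout libraries.

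The make-up of paralog families differed between conventional knockout and wild type without overlap for 7 of 11 shares. None passed the test, and none could, because 3 libraries against 3 allow no p under 0.1. Shares within a family sum to 100%, so they are not independent. With 3 libraries against 3, a fraction of 0.1 of the 20 possible splits separates the groups without overlap. Of the 12717 genes tested, FPKM was lower without overlap for 999 and higher for 836, though levels and shares are unlike measures. Myh8 made 10.5%, 10.96% and 11.4% of the 3 heavy chains in the knockouts against 14.9%, 14.9% and 14.8% in the wild type. Myh3 made 79.0%, 80.6% and 80.5% in the knockouts against 76.4%, 77.3% and 77.1%. Knockout replicate 1 lay with the other knockouts in both of these shares. In the exact two-sided permutation test each gave p = 0.1, the smallest that 3 libraries against 3 allow, and an adjusted p of 0.44 over 66 share tests.

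In the troponins and actins the knockouts held, without overlap, a larger share of slow Tnnt1 and smaller shares of Tnnt3, Tnnt2, Tnni2 and Acta1. None of these could pass the test with 3 libraries against 3. Tnnt1 made 69.5%, 65.4% and 64.5% of the troponin T sum in the knockouts against 60.4%, 59.5% and 60.1% in the wild type. Tnnt3 made 14.7% ± 0.817 against 17.7% ± 0.713, and Tnnt2 18.9% ± 2.33 against 22.3% ± 0.346 (SD, n = 3). Tnni2 made 17.7% ± 0.816 of the troponin I sum against 20.0% ± 0.180. Acta1 made 23.45%, 21.2% and 19.5% of the 2 actins in the knockouts against 24.3%, 23.52% and 23.7%. For Acta1, knockout replicate 1 thus lay only just below the lowest wild type library. These 5 shares did not overlap, while those of Myh7, Myl1, Tnnc2 and Chrng did. The lower shares thus include fast Tnnt3 and Tnni2, skeletal Acta1 and also cardiac Tnnt2.

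Against the heterozygotes 6 of the 11 knockout shares did not overlap, namely Myh3, Myh8, Tnnt1, Tnnt3, Tnni2 and Tnnc2. The lowest adjusted p from the exact permutation test was 0.44. Of the 12717 genes tested, FPKM was lower without overlap for 790 and higher for 473. Myh3 and Myh8 are parts of the same sum, as are Tnnt1 and Tnnt3, so these are not separate differences. Heterozygote and wild type overlapped in all 11 shares.

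**Figure D3:**
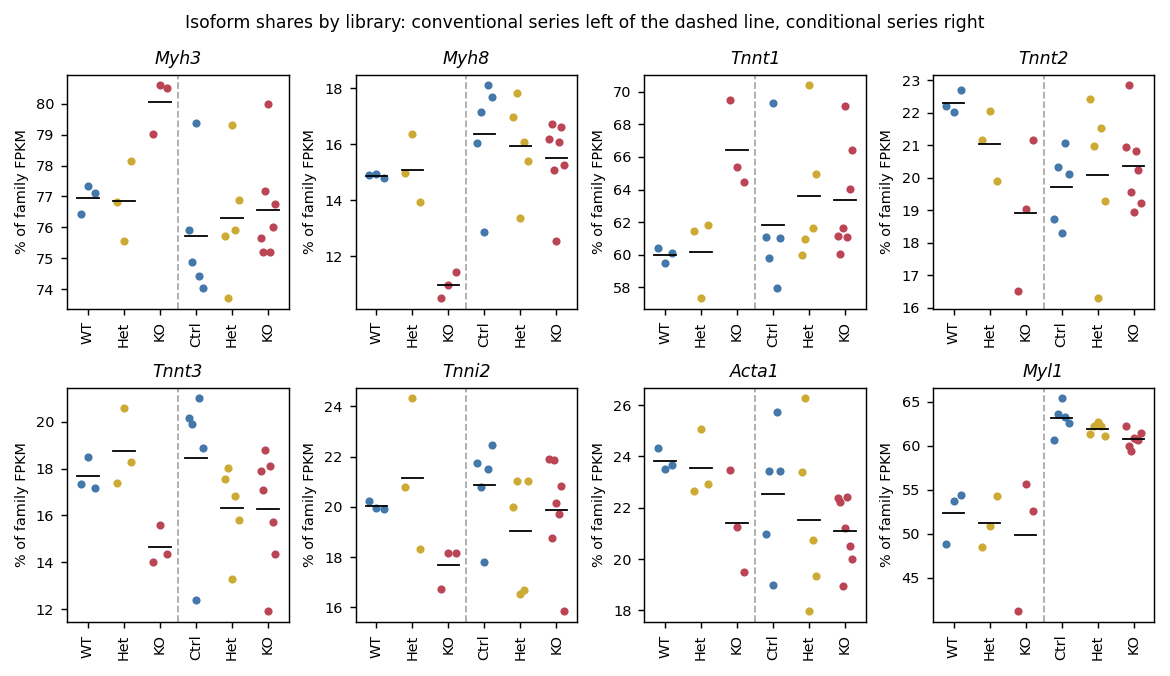
Share in percent of its family's summed FPKM for 8 paralogs, 1 point per library and a line at each group mean, with the conventional groups left of the dashed line and the conditional groups right of it. The conventional knockouts stand apart from wild type for Myh8, at 10.5% to 11.4% against 14.8% to 14.9%, and the conditional knockouts overlap the controls for every share drawn; axes do not start at 0.

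In the conditional knockout no member passed the test, and the direction of most members depended on single libraries. By limma 0 members were called, where 0.263% of all 12918 genes were called in either direction, and 0 members had an unadjusted p under 0.05, where 6.21% of all genes did. The fold change was negative for 26 members, against 46.2% of all genes, and positive for 7, with a median of -0.07 against 0.01 over all genes. Knockout and control libraries overlapped for all 33 members, where 0.325% of all genes were lower and 0.364% higher without overlap.

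Myh8 stood at 19.6, 20.7, 15.7, 31.0 and 27.6 FPKM in the conditional controls. The knockouts ran from 7.10 through a median of 21.3 to 30.8 FPKM, so the knockouts lay on both sides of most controls. The log2 fold change of Myh8 was -0.11 ± 0.29 (SE), with a 95% interval from -0.72 to 0.50. Myh3 ran from 45.4 through a median of 98.4 to 141 FPKM in the knockouts, around controls at 92.6, 90.2, 96.8, 127 and 116 FPKM (log2 fold change -0.03, interval -0.51 to 0.46). For both genes the interval was wide enough to hold changes of moderate size in either direction.

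Ckm had the smallest p of the members in that comparison. It stood at 1.11, 1.07, 0.608, 3.58 and 2.50 FPKM in the controls and ran from 0.457 through a median of 1.10 to 2.40 FPKM in the knockouts, so the groups overlapped. Its log2 fold change was -0.34 ± 0.27 (SE) with a limma adjusted p of 0.975. Tnnc1, the slow and cardiac troponin C, followed with -0.24 ± 0.23 (SE), at 265, 209, 186, 271 and 227 FPKM in the controls and 89.1 to 283 FPKM in the knockouts. Chrng had the largest positive value, 0.09 ± 0.18 (SE), at a knockout median of 13.4 FPKM.

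The spread between conditional libraries was large and shared by nearly all members. The highest library exceeded the lowest by a median factor of 3.18 over the members, against 1.41 over all genes tested, and by 8.84 for the member with the widest range. Knockout replicate 4 was lowest for 31 of the 33 members and heterozygote replicate 3 for the other 2. Knockout replicate 5 was highest for 13 members and knockout replicate 2 for 12. The 33 members together made 0.246% of the summed FPKM in knockout replicate 4 and 0.685% in knockout replicate 5, both of the same genotype. In the conventional table the corresponding factor was 1.97, against 1.77 over all genes.

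**Figure D4:**
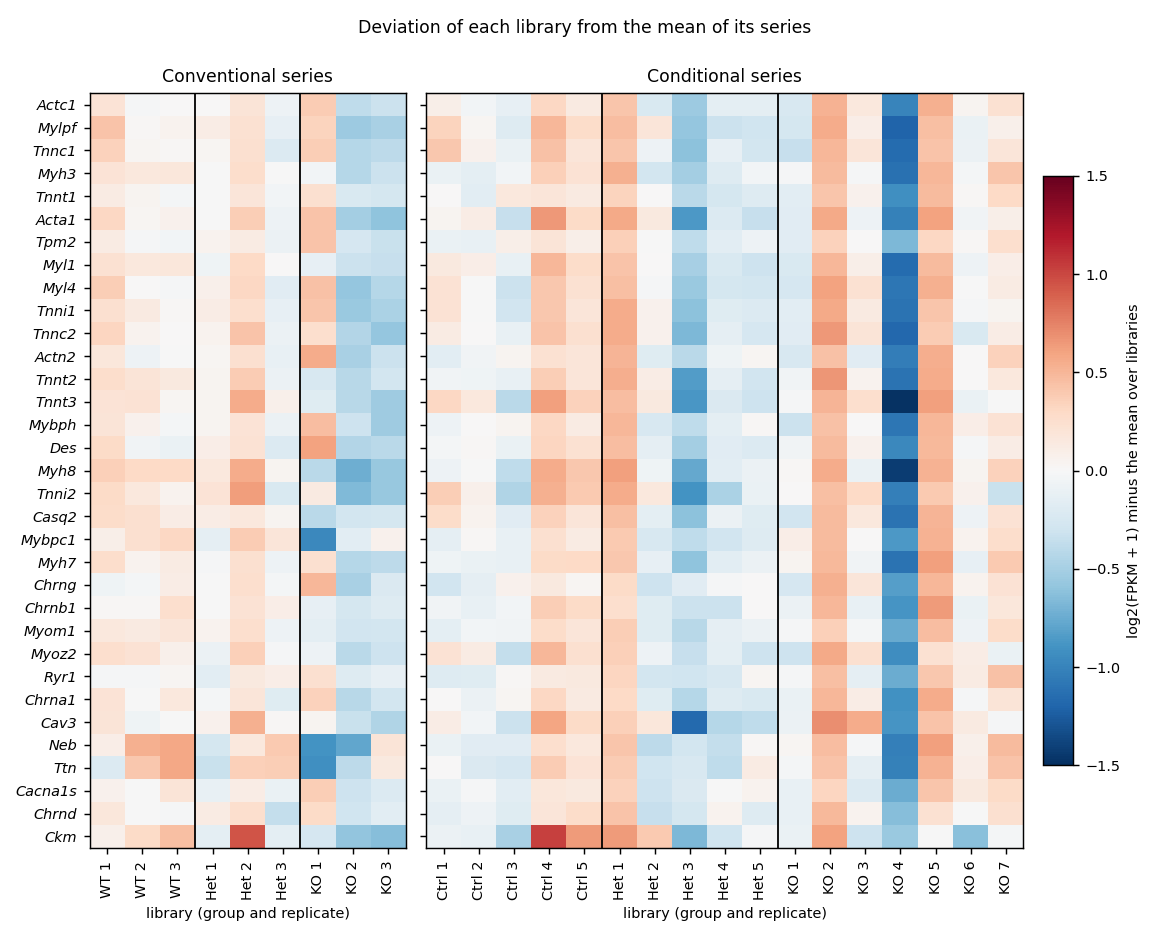
Log2(FPKM + 1) of each member minus its mean over the libraries of the table, for 9 conventional libraries (left) and 17 conditional libraries (right), with genes ordered by wild type level; blue is below and red above the mean. Columns, not blocks of columns, carry most of the colour in the conditional table, with a median deviation of -1.01 in KO 4 and 0.50 in KO 5.

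Without knockout replicate 4 the fold change was negative for 6 members and the median was 0.10, and without control replicate 4 it was negative for 17. The column names of the conditional table carry letters too (NZ, OB, OC and OA). With these letters as a term in the fit 1 member had a negative fold change, the median being 0.19. Among the NZ libraries, 2 controls and 2 knockouts, 4 were negative with a median of 0.21 and 5 members had an unadjusted p under 0.05, against 4.15% of all genes. Among 5 neuron markers, Uchl1 and Nefm were called lower in the conditional knockout against control with all libraries (limma adjusted p = 3.1e-04 and 0.0154), and no marker of the other tissue lists was; their part in the members' values was not tested. The OB libraries hold 1 control, and the OC and OA libraries hold no knockout.

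Other genes were low in knockout replicate 4 as well. Its median deviation from the table mean was -1.01 over the members, -0.68 over the 48 other muscle genes tested, -0.61 over 9 myogenic markers and -0.64 over 5 tendon markers. Over 6 limb mesenchyme markers the median was 0.37. The depth of that library, read from the steps between low values, was 1.40 times that of the shallowest conditional library, and the deepest was 1.91 times. The part of these differences in the members' values was not tested.

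The conditional heterozygotes had a negative fold change against controls for all 33 members, against 49.3% of all genes, with a median of -0.19. By limma 0 were called (0.00774% of all genes) and 0 had an unadjusted p under 0.05 (5.61% of all genes). With the column letters as a term 8 were negative and the median was 0.08. Cav3, the muscle caveolin, had the smallest p. It stood at 9.62, 8.34, 2.69, 5.17 and 5.40 FPKM in the heterozygotes and at 8.02, 7.10, 5.66, 11.5 and 9.13 FPKM in the controls, and the groups overlapped. The log2 fold change was -0.42 ± 0.29 (SE) with a limma adjusted p of 0.747.

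Between conditional knockouts and heterozygotes the fold change was positive for 32 members, against 51.1% of all genes, with a median of 0.12. By limma 0 were called (0.0774% of all genes) and 0 had an unadjusted p under 0.05 (4.63% of all genes). Without heterozygote replicate 3 it was negative for 16 members and the median was 0.01. Without knockout replicate 4 the median was 0.29, and 7 members had an unadjusted p under 0.05, against 9.27% of all genes. Cav3 had the smallest p, with a log2 fold change of 0.41 ± 0.27 (SE) and a limma adjusted p of 0.930, and Mybpc1 followed with 0.22 ± 0.19 (SE). The comparisons with controls and heterozygotes share the knockout libraries.

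Isoform shares overlapped between conditional knockout and control for all 11 shares, and 0 passed the test. The smallest p that 7 libraries against 5 allow is 0.00126, so a single share alone could not pass after adjustment over 66 tests. The smallest p was that of Myl1, which made 60.6%, 63.6%, 65.4%, 63.2% and 62.6% of its sum with Myl4 in the controls. In the knockouts it ran from 59.4% through a median of 60.7% to 62.3%. The mean was 60.8% ± 0.922 (SD, n = 7) against 63.1% ± 1.71 (SD, n = 5), with an exact two-sided permutation p of 0.0126 and an adjusted p of 0.44 over 66 tests. Against the heterozygotes, at 61.9% ± 0.674 (SD, n = 5), the exact permutation p for Myl1 was 0.0404 and the adjusted p 0.44. Among the NZ libraries the difference in Myl1 share was -0.996 percentage points, and among the OB knockouts and heterozygotes it was -1.41 percentage points. Myh8 made 15.5% ± 1.45 in the knockouts and 16.4% ± 2.10 in the controls.

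The Myh8, Tnnt3 and Acta1 shares were set against each other across the conditional libraries, a choice made after the shares had been seen. Knockout replicate 4, control replicate 3 and heterozygote replicate 3, all OB libraries and of different genotypes, had the lowest shares of both Myh8 and Tnnt3. In Myh8 share they lay apart from the other 14 libraries, at up to 13.3% against at least 15.1%. In Tnnt3 share heterozygote replicate 3 stood at 13.3% and the next library, knockout replicate 7, at 14.4%. Control replicate 3 stood at 12.9% for Myh8 and 12.4% for Tnnt3, where the other controls lay between 16.1% and 18.1% and between 18.9% and 21.0%.

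Because of that choice, and because 3 libraries lay apart in Myh8 share, the relations of these shares are descriptions with no test. The Pearson r of Myh8 with Tnnt3 share was 0.836 over all 17 libraries, 0.687 without the 2 farthest from the median Myh8 share, and 0.514 over the 14 other than those 3. For Myh8 with Acta1 share it was 0.775, 0.910 and 0.915 in the same order. Within the 9 OB libraries the r of Myh8 with Acta1 share was 0.391, and 0.794 without the 2 farthest (n = 7). Within the 7 knockouts it was 0.274. All axes come from the same libraries, so depth and tissue make-up are common to them.

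**Figure D5:**
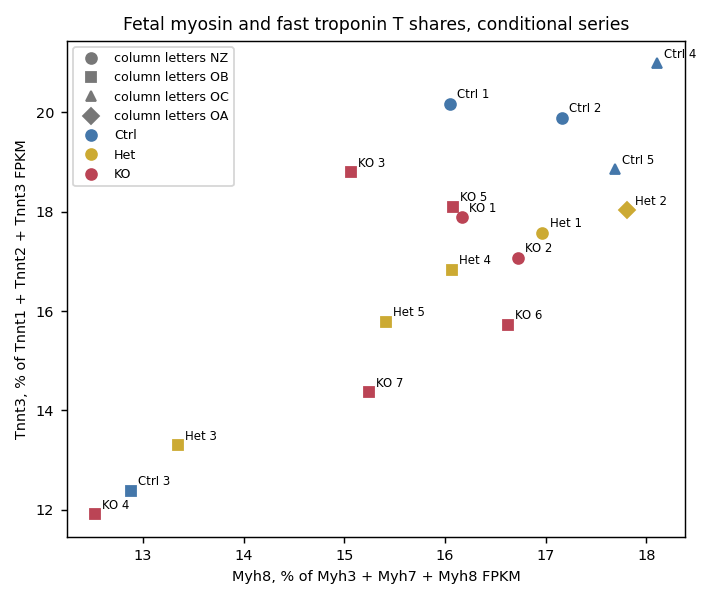
Share of Myh8 among the 3 heavy chains against share of Tnnt3 among the 3 troponin T genes, 1 point per conditional library, coloured by group and shaped by the letters in its column name. KO 4, Ctrl 3 and Het 3 lie lowest on both axes. They lie apart from the other 14 libraries on the Myh8 axis, between 12.5% and 13.3%. On the Tnnt3 axis Het 3 lies at 13.3% and the next library, KO 7, at 14.4%.

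Of the 60 other genes of the contractile apparatus, triad, neuromuscular junction, fusion and muscle energy use, 46 were tested in the conventional table and 48 in the conditional one. In the conventional knockout 40 of the 46 had a negative fold change (52.2% of all genes), with a median of -0.15. By limma 0 were called, where 0.00786% of all genes were called lower. At an unadjusted p under 0.05, 8 were lower (4.25% of all genes). Without knockout replicate 1 there were 23 lower at that p (7.48% of all genes). Then 44 had a negative fold change, against 6417 of all 12730 genes, and the median was -0.34. Smpx, a small protein of striated muscle, had the smallest p, at 4.84 ± 0.585 FPKM in the knockouts against 9.05 ± 1.37 FPKM in the wild type (SD, n = 3; limma adjusted p = 0.329). Myot, a Z-disc protein, stood at 2.59 ± 0.836 FPKM in the knockouts against 4.92 ± 0.506 FPKM (SD, n = 3). In the conditional knockout 33 of the 48 had a negative fold change (46.2% of all genes) and 0 were called (0.263% of all genes), with a median of -0.05. Tpm1, an alpha-tropomyosin not confined to striated muscle, stood at 378 ± 37.1 FPKM in the conditional knockouts against 338 ± 18.6 FPKM in the controls (limma adjusted p = 0.751).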

How the data were processed

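RNA of mouse E13.5 forelimbs was measured in 26 libraries. The authors deposited 1 table of FPKM values per series (conventional and conditional); bcl2fastq, TopHat2, Bowtie2, Cufflinks and mm10 are named, per the submitters' processing notes, with versions not given in the sources used here. Counts were not used here, so total FPKM (410482 to 490248 conventional, 436559 to 497121 conditional) is no depth. Relative depth, read from the steps between low values, varied by 1.30 times in the conventional table and 1.91 times in the conditional one. FPKM divides by length, so the shape of coverage can move values of long genes.

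Each table was tested alone with limma 3.58.1 (R 4.3.3) on log2(FPKM + 1), keeping genes that averaged 1 FPKM or more, with the 3 groups sharing 1 spread, a trended prior and Benjamini-Hochberg adjustment; fold changes are on that scale and understate changes of low genes. The procedure was tested on simulated data. Isoform shares were tested with exact two-sided permutation tests. All 33 members may be named; of the 60 other muscle genes and of each marker list, up to 4 per comparison with the smallest p, and paralogs of members as levels. The members and lists were chosen with earlier results of these data known. In the conventional series the deviations of same-numbered libraries from their group means correlated with r between 0.244 and 0.717. Libraries of different numbers were not compared, and replicate 1 had the column letters CH in every group. Whether replicate numbers pair the libraries was therefore not tested. Groups follow the labels, with no library left out of the main comparisons. Alternatives were pseudocount, filter, scaling, library weights, column letters, replicate block and leaving out each library.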

Additional observations from a re-analysis of the deposited data

Results flagged for a closer look

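In 7 of 129 groups of 5 or 7 libraries, 1 library lay far from the rest; chance gives this in about 1 in 20 groups. Ckm, the muscle creatine kinase, stood at 2.40 FPKM in conditional knockout replicate 2, where the next knockout was at 1.24 FPKM. In conditional heterozygote replicate 1, Chrna1, the alpha subunit of the acetylcholine receptor, stood at 8.58 FPKM (next 5.87 FPKM) and Mybpc1, the slow myosin binding protein C, at 19.2 FPKM (next 12.4 FPKM). In conditional knockout replicate 4 the Myh3 share was 80.0% (next 77.2%) and the Myh8 share 12.5% (next 15.1%); both come from 1 family and move together. In conditional control replicate 3 the Tnnt1 share was 69.3% (next 61.1%) and the Tnnt3 share 12.4% (next 18.9%), again within 1 family.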

How the results depend on the processing

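No member was called under any alternative except library weights, which called 25 members in the conventional knockout against wild type and 2 against heterozygotes; the cause was not tested. In conventional knockout against wild type the fold change of Ryr1 became positive with quantile normalization (0.11), without knockout replicate 2 (0.064) and without knockout replicate 3 (0.03). That of Chrng became 0.13 without knockout replicate 2; leaving out libraries gave -0.15 to 0.064 for Ryr1 and -0.36 to 0.13 for Chrng. The Myl1 share difference ran from -5.40 to 1.84 percentage points, the last without knockout replicate 1.

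In the conditional knockout against control, with column letters as a term, the fold change was 0.32 for Ckm, 0.35 for Myh8 and 0.25 for Myh3; within NZ libraries it was 0.35, 0.33 and 0.35. Library weights gave 0.10 for Myh3. Leaving out libraries gave -0.23 to 0.13 for Myh8, with 0.0072 without control replicate 4 and 0.13 without knockout replicate 4. It gave -0.11 to 0.16 for Myh3, with 0.05 and 0.01 without control replicates 4 and 5 and 0.16 without knockout replicate 4. The cause was not tested.

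With the replicate block, 0 members were called in any comparison, and the block changed no call. In the conditional series the deviations of same-numbered libraries correlated with r from -0.308 to 0.444. Without counts, depth limits low genes such as Ckm to an unknown degree.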
